A study of Mus musculus with 61 samples.

Results

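The 40 genes described here are induced by type I interferon and were followed in the liver of 8 inbred mouse strains. They are the rows of the deposited count table whose gene symbol is on a list of interferon response genes (the members below), out of 18754 genes in the table, of which 16165 passed a filter on low counts and were tested. All 40 members passed that filter, and each of them had reads in all 60 libraries. The members and the other gene lists used here were chosen with earlier results of these data known.

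The mice came from the 8 inbred lines that founded the Diversity Outbred stock, a mouse population kept for genetic mapping, and all had been fed a high-fat, high-sugar diet labelled as 45 percent fat. The libraries number 8 of strain-129, 6 of AJ, 7 of B6, 7 of Cast, 8 of NOD, 8 of NZO, 8 of PWK and 8 of WSB. No strain is a control, no group on another diet is compared, and the labels used here give neither sex nor age. The labels do not say that each library came from a separate mouse, so p-values measure the spread between libraries.

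Type I interferons are secreted when a cell senses foreign or misplaced nucleic acid. They bind the receptor IFNAR on neighbouring cells, the kinases JAK1 and TYK2 are activated, and a transcription factor complex that includes STAT2 and IRF9 binds the interferon-stimulated response element in the promoters of target genes. IRF7, itself a target, drives further interferon production, and USP18 acts at the receptor to damp the signal. In liver the response is shared by hepatocytes and by resident macrophages (Kupffer cells), endothelial cells and lymphocytes, all of which are in a bulk sample. In such samples fewer cells of a type and less RNA per cell cannot be told apart.

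The response element is visible in the reference promoters of many members. A promoter here is the stretch from 250 bases before to 50 after the start of a gene in RefSeq on the build GRCm38.p6, and 32 of the 40 members matched an entry by symbol. The core of the element was searched as GAAANNGAAA on either strand, where overlapping matches count separately and the other strand reads TTTCNNTTTC. It was found for 15 of the 32 members (46.9%) and in 3.44% of the 32851 promoters of the table, or 3.99% of its genes. A match describes these letters in the reference strain and does not show that a factor binds there. Sequences are shown for members whose levels are described below, 5′ to 3′ on the strand of the gene and ending before the gene's start, with every match in capitals. Isg15, whose product is a ubiquitin-like protein joined to other proteins, has 3 overlapping matches between 78 and 66 bases before its start, and its whole upstream stretch is given (chr4:156200819-156201068, minus strand).
Isg15: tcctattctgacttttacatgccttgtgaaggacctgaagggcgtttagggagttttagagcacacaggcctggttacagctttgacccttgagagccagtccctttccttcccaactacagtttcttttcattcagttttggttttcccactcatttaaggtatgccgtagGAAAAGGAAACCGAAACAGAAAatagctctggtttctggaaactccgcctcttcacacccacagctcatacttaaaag

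The next set shows the part around the matches in 3 neighbours on chromosome 19, Ifit1 (chr19:34640760-34640838), Ifit3 (chr19:34583348-34583441) and Ifit3b (chr19:34607744-34607837), all on the plus strand. Their products, tetratricopeptide repeat proteins, bind foreign RNA and block its translation. The windows of Ifit3 and Ifit3b are 94 bases long and differ at 0 positions in this reference.
Ifit1: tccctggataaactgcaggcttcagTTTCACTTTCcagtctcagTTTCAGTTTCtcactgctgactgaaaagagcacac
Ifit3: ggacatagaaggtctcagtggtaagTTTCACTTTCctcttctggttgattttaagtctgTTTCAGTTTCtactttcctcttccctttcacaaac
Ifit3b: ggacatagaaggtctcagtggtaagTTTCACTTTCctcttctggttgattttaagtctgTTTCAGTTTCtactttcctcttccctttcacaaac

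The last set comes from members on chromosomes 5 and 12, all on the minus strand, whose levels are given below. Oas1a (chr5:120907526-120907570), Oas1g (chr5:120887614-120887656) and Oas3 (chr5:120777700-120777759) encode oligoadenylate synthetases, which on binding double-stranded RNA make a messenger that activates RNase L, and Rsad2 (chr12:26456538-26456597) encodes viperin, an enzyme that makes a chain-terminating nucleotide.
Oas1a: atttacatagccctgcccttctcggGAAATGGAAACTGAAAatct
Oas1g: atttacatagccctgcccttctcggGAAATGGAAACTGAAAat
Oas3: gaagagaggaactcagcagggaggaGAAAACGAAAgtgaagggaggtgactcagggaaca
Rsad2: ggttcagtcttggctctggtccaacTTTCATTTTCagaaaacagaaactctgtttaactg

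Library depth ran from 19.98 to 69.17 M reads, with a median of 30.42 M. Summed hepatocyte markers, including Alb, stood between 26063 and 152622 CPM (the usual read count of a gene scaled to library size and composition) in every library. Reads of an 18S ribosomal RNA sequence made up 0.837% to 16.0% of a library and were highest in NZO. Of the members, 21 averaged under 10 CPM over the 60 libraries, 16 between 10 and 100, and 3 at 100 or more. Per kilobase of exon the highest mean level was that of Lgals9 (galectin-9, 213.6 CPM per kb), followed by Bst2 (tetherin, which holds budding virus at the cell surface, 64.9) and Lgals3bp (a secreted galectin-3 binding protein, 37.6). The lowest was that of Oas3, at 0.216.

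The members differed between strains. The strain mean was highest in B6 for 17 members, in NZO for 11 and in PWK for 9, and it was lowest in Cast for 27. Of all genes tested, 10.5% were highest in B6, 15.4% in NZO and 13.9% in PWK, and 22.3% were lowest in Cast. In edgeR's quasi-likelihood test over the 8 strains, 39 of 40 members differed (97.5%), against 89.8% of all genes tested, so the share alone says little about these genes. Lgals9 was the member that did not pass (adjusted p = 0.125). The variance between strains made up a median of 69.2% of the total variance of a member's log2 CPM, against 49.3% over all genes tested. It was largest for Lgals3bp (91.0%), Irf7 (85.3%), Ifi44 (81.3%), Oasl2 (80.2%) and Ifi27 (79.7%). The median member was 4.44-fold higher in its highest than in its lowest strain. The difference exceeded 10-fold for 4 members and stayed under 2-fold for 9.

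The mean log2 CPM of the 40 members, called the member score, gives each library 1 value. Its range was 3.93 to 4.66 in the 7 B6 libraries (median 4.36), 3.65 to 4.62 in NZO (median 4.44) and 3.04 to 4.27 in PWK (median 4.01). In AJ it ran from 3.25 to 3.91 (median 3.53), in NOD from 2.70 to 3.77 (median 3.24), in strain-129 from 2.78 to 3.64 (median 3.21), in WSB from 2.96 to 3.31 (median 3.08) and in Cast from 2.01 to 3.504 (median 2.39). All B6 libraries thus stood above all libraries of AJ, NOD, strain-129, WSB and Cast, while NZO and PWK overlapped with B6.

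**Figure D1:**
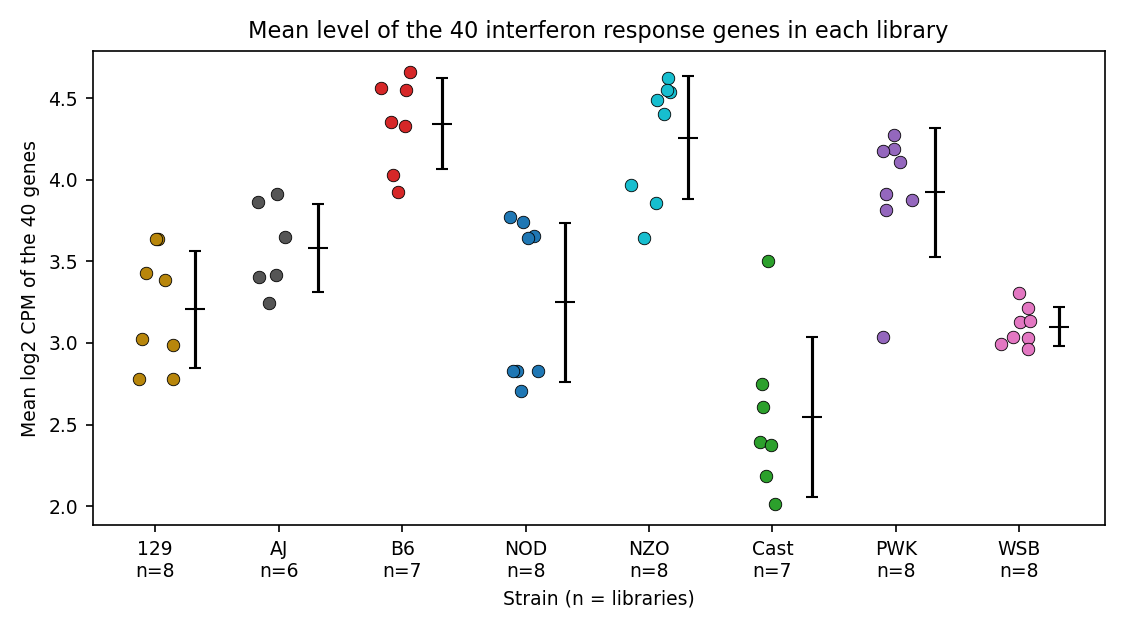
Mean log2 CPM of the 40 interferon response genes (vertical axis) in each of the 60 libraries by strain, with the mean and SD of the strain beside the points. B6 libraries sit between 3.93 and 4.66, and 6 of the 7 Cast libraries sit at or below 2.75, with Cast library 5 at 3.504.

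Each strain was then set against the unweighted mean of the other 7 strains, in 1 edgeR fit over all libraries. A member counts as higher or lower at an adjusted p below 0.05, with Benjamini-Hochberg adjustment over all genes tested. The 8 contrasts share libraries and are given side by side. Every standard error (SE) below is that of a log2 fold change, computed as its size over the square root of the test's F. The median log2 fold change of the 40 members was 0.94 in B6, 0.91 in NZO, 0.45 in PWK, 0.05 in AJ, -0.20 in NOD, -0.36 in strain-129, -0.41 in WSB and -1.01 in Cast, while that of all genes tested stayed between -0.015 and 0.016.

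**Figure D2:**
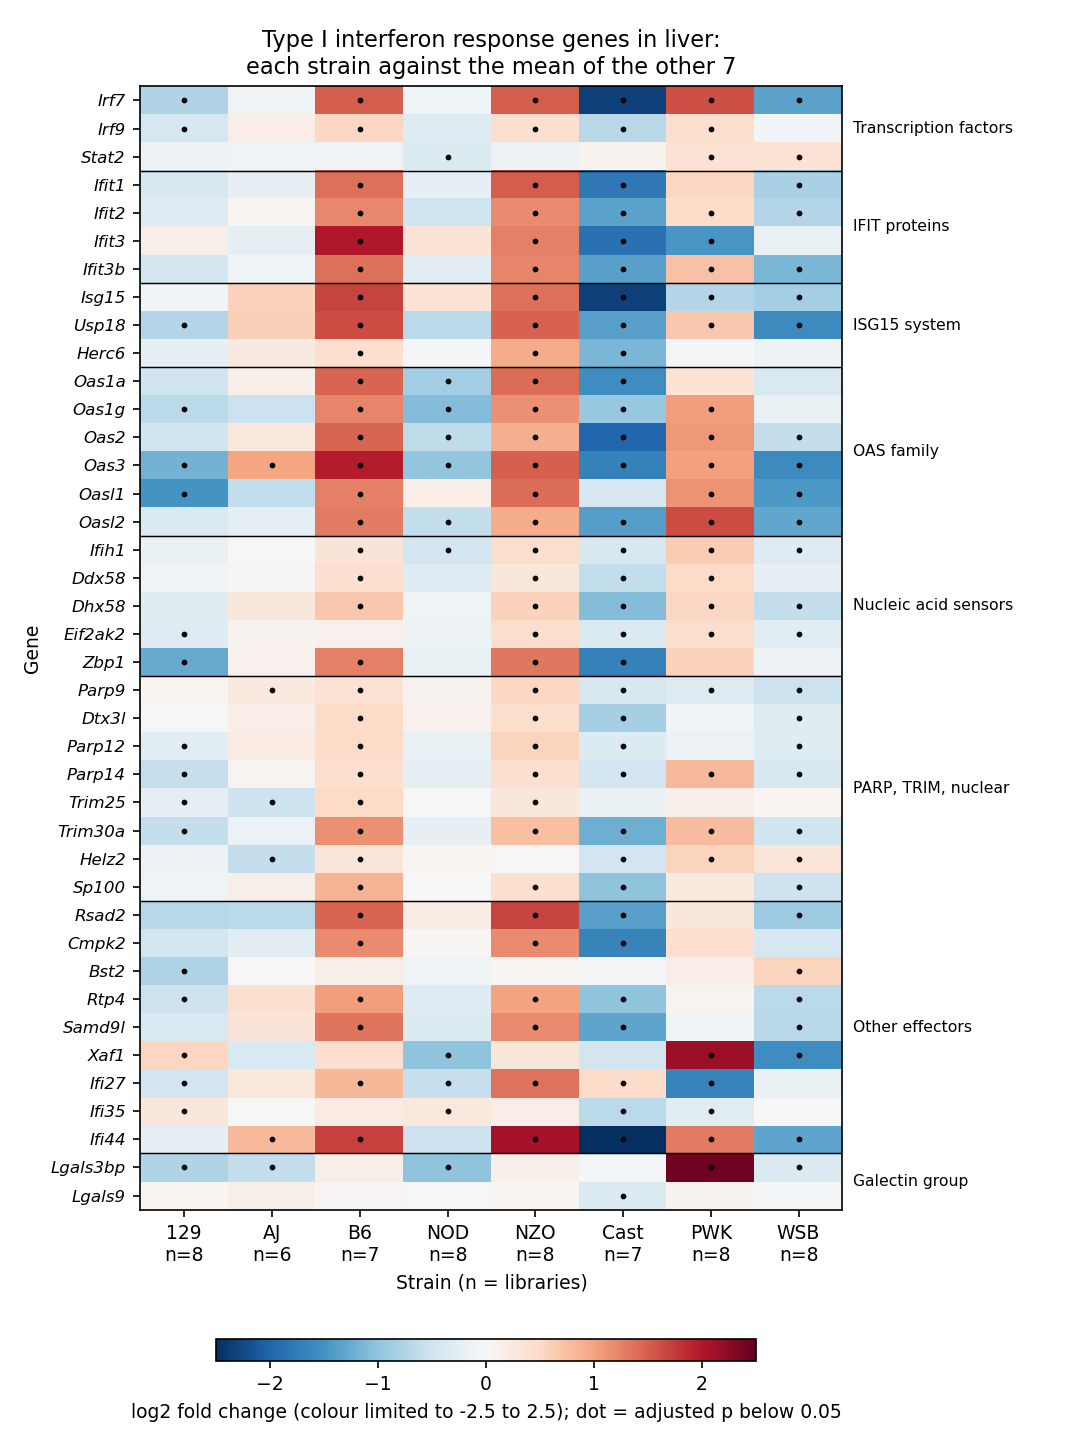
Log2 fold change of each of the 40 genes (rows, grouped by role) in each strain against the mean of the other 7 strains (columns), red higher and blue lower, with a dot where the adjusted p was below 0.05. B6 and NZO hold 33 higher and 0 lower members each, Cast holds 33 lower, and PWK mixes 21 higher with 5 lower.

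In B6, 33 of 40 members were higher, where 19.4% of all genes tested were, and 0 were lower, where 14.7% of all genes were. No member was lower in B6 at an unadjusted p below 0.05 either, and DESeq2 and limma also gave 0. Of the 33, 20 rose by at least 1 on the log2 scale. The largest rise was that of Ifit3, at 13.4 to 27.2 CPM in B6 (median 18.4), and it rose by 1.99 on the log2 scale (SE 0.215, adjusted p = 5.11e-11). All 7 B6 libraries lay above the mean of the other strains. Oas3 rose by 1.96 (SE 0.249), Ifi44, an interferon-induced protein with antiproliferative activity, by 1.71 (SE 0.265), and Isg15 by 1.68 (SE 0.222). Usp18, the brake named above, rose by 1.62 (SE 0.228) and Irf7 by 1.51 (SE 0.189) in the same libraries. The 7 members that did not pass in B6 were Bst2, Eif2ak2, Ifi35, Lgals3bp, Lgals9, Stat2 and Xaf1.

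NZO matched B6 in number, with 33 members higher (26.7% of all genes tested) and 0 lower (19.5% of all genes). The count of 0 was the same at an unadjusted p below 0.05, in DESeq2 and in limma. Ifi44 stood at 2.84 to 13.4 CPM in NZO (median 8.35) and rose by 2.07 (SE 0.246, adjusted p = 4.68e-10). Rsad2 ranged from 5.94 to 27.2 CPM (median 21.4) and rose by 1.69 (SE 0.23), Irf7 by 1.51 (SE 0.18), Ifit1 by 1.51 (SE 0.256), Oas3 by 1.49 (SE 0.245) and Usp18 by 1.47 (SE 0.219). Libraries were spread widely: Ifit1 in NZO ran from 4.01 to 19.3 CPM, and library 6 held the lowest NZO value of 21 members. When the 6 libraries with over 9% of reads in 18S RNA were left out, 5 of them from NZO, 27 members were higher in NZO.

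Cast was the reverse, with 33 members lower (28.8% of all genes tested) and 1 higher (30.8% of all genes). Of the lower members, 21 fell by at least 1 on the log2 scale. The 33 include Lgals9 (-0.33, adjusted p = 0.00424 in edgeR), which did not pass over the 8 strains. For Lgals9, 3 Cast libraries lay above the mean of the other strains and 4 below. Ifi44 had 0.0643 to 0.748 CPM in Cast (median 0.115), against 4.0 to 9.27 in B6, and fell by 3.86 (SE 0.449, adjusted p = 1.29e-10). Between the means of NZO and Cast that gene differed 37.8-fold, with only 49 reads of it in the 7 Cast libraries together. Irf7 fell by 2.34 (SE 0.267), Isg15 by 2.33 (SE 0.324), Oas2 by 1.97 (SE 0.285), Ifit3 by 1.87 (SE 0.305) and Ifit1 by 1.79 (SE 0.364), each with all 7 Cast libraries below the mean of the other strains. The member that was higher, Ifi27, a mitochondrial and nuclear envelope protein, had a log2 fold change of 0.45 (adjusted p = 0.00886) with 4 libraries above and 3 below. It did not pass without Cast library 5 (0.29, adjusted p = 0.109), without library 8 (0.36, adjusted p = 0.0507) or in limma (0.30, adjusted p = 0.0908).

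Cast library 5 stood apart from the other 6. It had the highest Cast value of 30 of the 40 members, with Usp18 at 5.42 CPM where the next Cast library had 1.33, and Rsad2 at 10.8 against 2.29. Its member score was 3.504, and the next was 2.75. Without it, 35 members were lower in Cast and 0 were higher, and the count of members higher in AJ went from 3 to 5.

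PWK had members called in both directions, mostly higher. In that strain 21 were higher (52.5%, against 22.5% of all genes tested) and 5 were lower (12.5%, against 22.7% of all genes). The lower share was thus below that of all genes. Lgals3bp had 203 to 442 CPM in PWK (median 363), and the highest library of any other strain had 139, in Cast. It rose by 2.43 (SE 0.0923, adjusted p = 2.69e-30), which was the largest rise of any member in any strain. Xaf1, a proapoptotic protein that binds the inhibitor of apoptosis XIAP, stood at 9.0 to 25.8 CPM and rose by 2.14 (SE 0.173). Oasl2 rose by 1.62 (SE 0.172), Irf7 by 1.61 (SE 0.179), Ifi44 by 1.3 (SE 0.261) and Oasl1, which limits Irf7 translation in mouse, by 1.13 (SE 0.229).

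Against that rise, Ifi27 fell by 1.67 in PWK (SE 0.172, adjusted p = 4.04e-12), with 7.30 to 13.8 CPM where NZO had 29.1 to 87.7. Ifit3 fell by 1.46 (SE 0.276, adjusted p = 1.37e-05), Isg15 by 0.74 (SE 0.263, adjusted p = 0.0178), Parp9 by 0.32 (SE 0.0722) and Ifi35, the partner of Nmi, by 0.26 (SE 0.102). The log2 fold changes of the first 4 in B6 were 0.84 for Ifi27, 1.99 for Ifit3, 1.68 for Isg15 and 0.36 for Parp9, and all 4 were called higher there. PWK library 9 had the lowest PWK value of 38 of the 40 members, and without it 23 members were higher and 3 lower. Isg15 (-0.60, adjusted p = 0.0653) and Ifi35 (-0.20, adjusted p = 0.12) did not pass then, and Ifi35 also missed the threshold without library 1, 2, 4 or 5 of PWK.

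**Figure D3:**
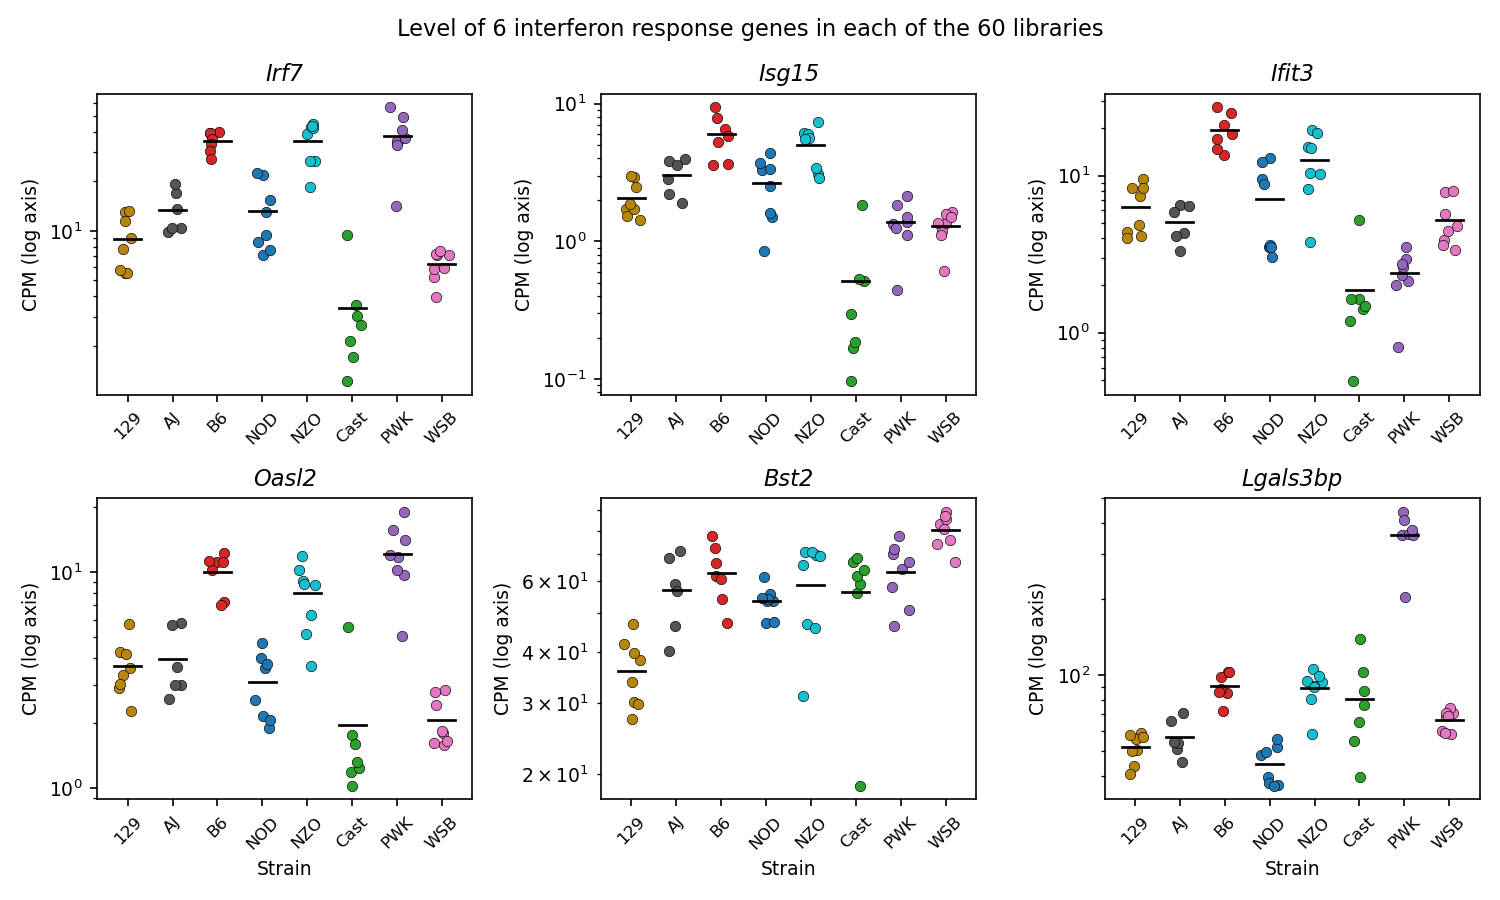
CPM on a log axis of Irf7, Isg15, Ifit3, Oasl2, Bst2 and Lgals3bp in each of the 60 libraries by strain, with a bar at the strain mean. PWK is among the highest strains for Irf7 and Oasl2 and among the lowest for Isg15 and Ifit3, and Lgals3bp in PWK (203 to 442) lies above every library of the other strains.

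The pair Ifit3 and Ifit3b parted in PWK. The promoter windows printed above are those of the reference, and the PWK sequence was not examined. Ifit3 was lower in PWK at 0.815 to 3.52 CPM, whereas Ifit3b, at 1.22 to 5.15 CPM, was higher, with a log2 fold change of 0.73. The ratio of Ifit3 to Ifit3b was 0.450 to 0.792 in the 8 PWK libraries (median 0.659) and 1.37 or more in all 52 others, with strain medians from 1.76 in Cast to 3.86 in WSB. The estimated counts of both genes were not whole numbers in any of the 60 libraries, so part of their reads was assigned by estimate. Which genes those reads were shared with is not known here, and the part of such sharing in the ratio was not tested. Their sum does not depend on a split of reads between the 2. In PWK it was 2.04 to 8.27 CPM (median 6.98), near AJ (median 7.22) and strain-129 (median 7.28), and below B6 (median 23.4) and NZO (median 18.2). This pair was chosen for description after its values were seen, and no test is given.

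**Figure D4:**
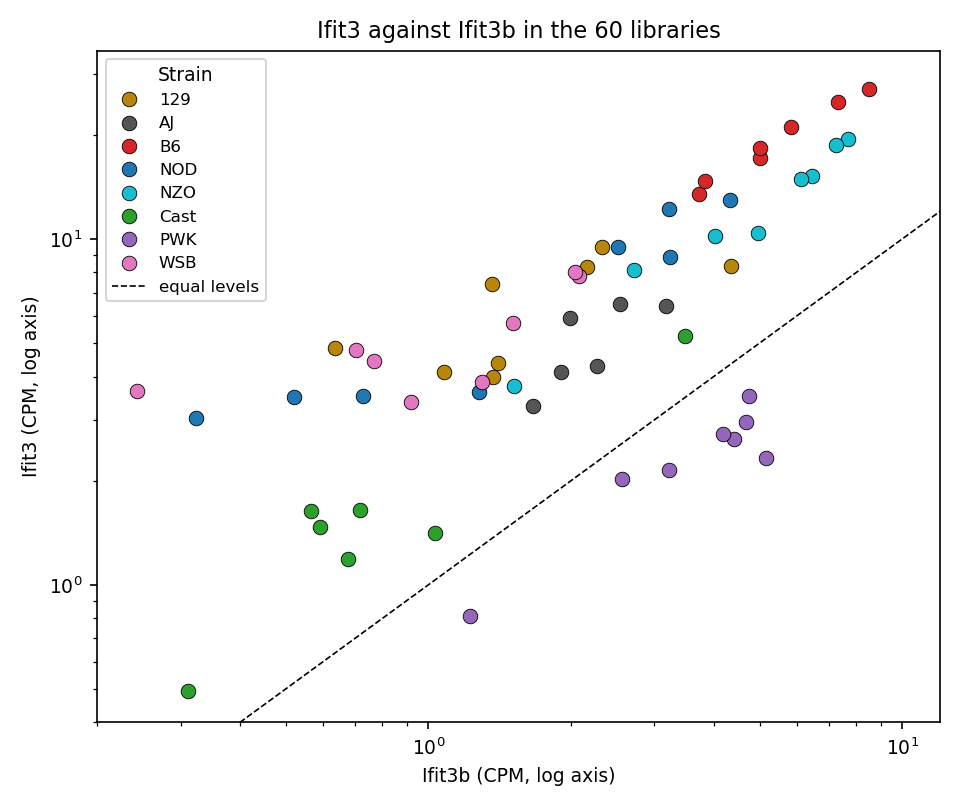
Ifit3 against Ifit3b, both in CPM on log axes, in the 60 libraries, coloured by strain, with a dashed line of equal levels. The 8 PWK libraries lie below the line (ratios of 0.450 to 0.792) and all other libraries lie above it.

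WSB had 25 members lower (22.4% of all genes tested) and 3 higher (22.6% of all genes). Usp18 had 0.83 to 2.21 CPM in WSB and fell by 1.60 (SE 0.29, adjusted p = 9.32e-06). Oas3 fell by 1.59 (SE 0.331), Xaf1 by 1.55 (SE 0.238), Oasl1 by 1.44 (SE 0.289), Irf7 by 1.34 (SE 0.23) and Ifi44 by 1.31 (SE 0.332), with all 8 libraries below the mean of the other strains for each. The 3 higher members were Bst2 (0.56, SE 0.113), Stat2 (0.36, SE 0.0954) and Helz2, a nuclear coactivator helicase (0.30, SE 0.0884).

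The other 3 strains showed fewer calls. In strain-129, 16 members were lower (10.9% of all genes tested) and 2 were higher (13.7% of all genes). Oasl1 fell there by 1.5 (SE 0.289, adjusted p = 5.59e-05), Zbp1, a sensor of Z-form nucleic acid that can trigger necroptosis, by 1.26 (SE 0.395), Oas3 by 1.18 (SE 0.317) and Bst2 by 0.77 (SE 0.126). Without strain-129 library 8 the lower count was 8, and without library 6 it was 9. The 2 higher members, Xaf1 (0.54, adjusted p = 0.0354) and Ifi35 (0.28, adjusted p = 0.0292), both missed the threshold without library 3 and without library 4, and 1 of them did without library 1, 2 or 7. In NOD, 10 members were lower (11.6% of all genes tested) and Ifi35 alone was higher (16.7% of all genes). Oas1g fell by 1.08 (SE 0.255), Lgals3bp by 1.00 (SE 0.121), Xaf1 by 1.00 (SE 0.226), Oas3 by 0.99 (SE 0.312) and Oas1a by 0.88 (SE 0.217). Ifi35 in NOD (0.27, adjusted p = 0.0291) missed the threshold without library 3, 4, 5 or 8, with log2 fold changes of 0.26, 0.25, 0.25 and 0.26.

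In AJ, 3 members were higher (13.1% of all genes tested) and 3 were lower (11% of all genes). Lgals3bp fell by 0.60 (SE 0.133), Helz2 by 0.60 (SE 0.108) and Trim25, a ubiquitin ligase that activates RIG-I, by 0.53 (SE 0.0964), each with all 6 libraries below the mean of the other strains. The 3 that were higher were Oas3 (0.98, adjusted p = 0.00854), Ifi44 (0.81, adjusted p = 0.0426) and Parp9 (0.25, adjusted p = 0.0122). None of these 3 passed without AJ library 4, where their log2 fold changes were 0.65, 0.60 and 0.22. Ifi44 in AJ also missed the threshold without AJ library 2, 3 or 6, B6 library 8 or Cast library 2, 3 or 6.

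By role, the transcription factors behaved unlike each other. Irf7 had 27.5 to 40.1 CPM in B6 (median 36.0), 18.4 to 44.4 in NZO (median 40.5) and 14.1 to 56.4 in PWK (median 36.0). It had 9.86 to 19.4 in AJ (median 12), 7.18 to 22.4 in NOD (median 11.2), 5.58 to 13.2 in strain-129 (median 8.41), 3.95 to 7.56 in WSB (median 6.54) and 1.22 to 9.49 in Cast (median 2.69). The ranges of the 3 high strains overlap, and so do those of AJ and NOD. No test between single strains was made. Irf9 covered a narrower range, from a mean of 33.2 ± 6.4 CPM (SD, n = 7) in B6 to 16.0 ± 7.8 (n = 7) in Cast, and in WSB, where Irf7 fell by 1.34, it did not pass (-0.08). Stat2 did not follow: its mean was 74.0 ± 13 (n = 8) in PWK and 74.0 ± 10 (n = 8) in WSB, 62.3 ± 20 (n = 7) in Cast, and lowest at 47.5 ± 4.4 (n = 8) in NOD. In B6 and NZO, where Irf7 and Irf9 were higher, Stat2 had log2 fold changes of -0.09 and -0.15, which did not pass.

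Within the ISG15 system, Isg15 ran from 3.58 to 9.43 CPM in B6 (median 5.78) and from 2.91 to 7.33 in NZO (median 5.57). The medians were 3.20 in AJ, 2.92 in NOD, 1.80 in strain-129, 1.35 in PWK, 1.35 in WSB and 0.298 in Cast, where the lowest library had 3 reads of the gene. Usp18, the protease that removes ISG15 as well as the receptor brake, had medians of 9.53 in NZO, 9.26 in B6, 5.60 in PWK, 5.06 in AJ, 2.00 in NOD, 1.99 in strain-129, 1.16 in WSB and 0.956 in Cast. Herc6, the mouse ligase that attaches ISG15, was highest in NZO at 27.4 ± 5.2 CPM (n = 8) and lowest in Cast at 7.83 ± 3.3 (n = 7). In PWK, Isg15 was lower and Usp18 higher (0.68), and Herc6 had a log2 fold change of -0.05 that did not pass.

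Among the IFIT genes, Ifit1 had strain medians of 13.6 CPM in NZO, 10.1 in B6, 7.95 in PWK, 4.95 in AJ, 4.45 in NOD, 3.89 in strain-129, 2.71 in WSB and 1.14 in Cast. Libraries of AJ, NOD and strain-129 overlapped for this gene. Ifit2 ran from a mean of 7.79 ± 1.6 (n = 7) in B6 to 1.66 ± 1.4 (n = 7) in Cast. Of the oligoadenylate synthetases, Oas1a had medians of 7.46 in B6, 6.87 in NZO, 3.54 in PWK, 2.56 in AJ, 2.05 in WSB, 1.82 in strain-129, 1.43 in NOD and 0.965 in Cast. All 6 Oas and Oasl members were higher in both B6 and NZO, 5 of them, all but Oas1a, were higher in PWK, and 5 of them, all but Oasl1, were lower in Cast. Counts of Oas1a and Oas1g were likewise not whole in any of the 60 libraries, so part of their reads was assigned by estimate. Oas1g is the member with the lowest mean level, 1.28 CPM.

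The sensors Ifih1, Ddx58, Dhx58 and Eif2ak2 moved over a smaller range. Zbp1, also a sensor, did not: it differed 6.18-fold between the means of NZO (9.84 CPM) and Cast (1.59 CPM). Ifih1 (MDA5, a sensor of long double-stranded RNA) was highest in PWK at 52.4 ± 6.9 CPM (n = 8) and lowest in NOD at 26.7 ± 3.8 (n = 8). Ddx58 (RIG-I, a sensor of RNA ends) was highest in PWK at 40.4 ± 6.1 (n = 8) and lowest in Cast at 20.8 ± 9.4 (n = 7). Dhx58 (LGP2, a regulator of both) was highest in B6 at 11.9 ± 1.7 (n = 7) and lowest in Cast at 4.13 ± 1.6 (n = 7). Those 3 were higher in B6, NZO and PWK and lower in Cast. Eif2ak2 (PKR, a kinase that stops translation on binding double-stranded RNA) was higher in NZO (0.44) and PWK (0.43) but did not pass in B6 (0.10).

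Rsad2 had medians of 21.4 CPM in NZO, 18.9 in B6, 8.26 in PWK, 6.65 in NOD, 4.42 in strain-129, 3.86 in AJ, 3.52 in WSB and 1.80 in Cast. Samd9l, a translation inhibitor, Cmpk2, a mitochondrial nucleotide kinase next to Rsad2, and Rtp4 were likewise highest in B6 or NZO and lowest in Cast. Bst2 differed from these: it had 67.0 to 89.1 CPM in WSB (median 82.0) and 27.3 to 47.0 in strain-129 (median 36.1), 2 ranges that do not overlap. In the other 6 strains the medians of Bst2 lay between 53.9 and 67.5, and none of those strains passed. The neighbours Parp9 and Dtx3l, whose products act as a complex, overlap at their 5′ ends on opposite strands (chr16:35938470-35972605 and chr16:35926511-35939151, positions in the deposited gene annotation, GRCm38), and their counts were not whole in any library, so part of their reads is assigned by estimate. Both were higher in B6 and NZO and lower in Cast and WSB. Parp14 was highest in PWK, at 79.5 ± 14 (n = 8).

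Between libraries of 1 strain the members rose and fell together. The mean correlation between pairs of members, after the strain means were subtracted from log2 CPM, was 0.535 over the 60 libraries, and that over all genes tested was 0.001. Each member's correlation with the mean of the others had a median of 0.779 and ran from 0.229 (Lgals9) to 0.910 (Xaf1). These are descriptions: the points share libraries and depth, and no test was made. Over the 8 strain means, 29 members had a correlation above 0.8 with the mean of the other members, led by Ifit2 (0.993) and Ifit1 (0.992). Below 0.5 were 5 members, namely Helz2 (0.474), Lgals3bp (0.391), Ifi27 (0.247), Bst2 (0.196) and Stat2 (-0.057). Lgals3bp, Ifi27 and Xaf1 thus moved with the other members between libraries of a strain (0.821, 0.734 and 0.910) and less so between strain means (0.391, 0.247 and 0.517).

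Xist, the RNA that silences an X chromosome in females, was at most 8.90 or at least 646 CPM in each library, and the labels used here give no sex. In NOD the member score fell into 2 sets: libraries 1 to 4 had 3.64 to 3.77 with Xist at 1056.5 to 1307 CPM, and libraries 5 to 8 had 2.70 to 2.83 with Xist at 0.868 to 4.06 CPM. In strain-129, libraries 1 to 4 had scores of 3.38 to 3.64 with Xist at 894 to 1246 CPM, and libraries 6 to 9 had 2.78 to 3.03 with Xist at 1.46 to 3.07 CPM. In NZO, libraries 1 to 4 had 4.49 to 4.62 with Xist at 1319 to 1422 CPM, and libraries 5 to 8 had 3.65 to 4.40 with Xist at 0.193 to 1.60 CPM. In Cast the ranges overlapped, with 2.01 to 2.39 in libraries 1 to 3, where Xist was 809 to 993 CPM, and 2.37 to 3.504 in libraries 5 to 8, where it was 0.659 to 3.94 CPM. Libraries of high and low Xist also overlapped in score in WSB, AJ, B6 and PWK. No test was made between such libraries. With Xist as a covariate in the edgeR fit the lower count in NOD went from 10 to 16, and the counts in B6, NZO and Cast kept their values of 33 higher, 33 higher and 33 lower.

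**Figure D5:**
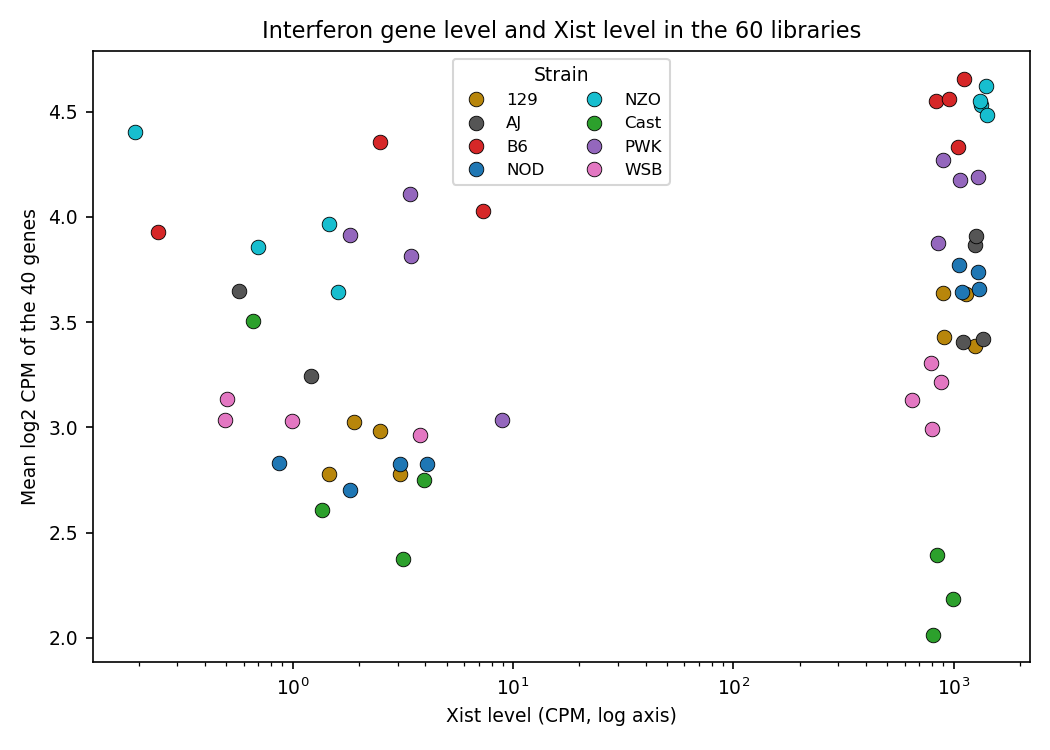
Mean log2 CPM of the 40 genes (vertical axis) against the Xist level in CPM (log axis) in the 60 libraries, coloured by strain. NOD libraries with Xist at 1056.5 CPM or more score 3.64 to 3.77 and those at 4.06 CPM or less score 2.70 to 2.83, while the Cast libraries with high Xist score 2.01 to 2.39.

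Several lists of immune cell markers had many genes higher in B6 and NZO and lower in Cast, whereas endothelial markers did not follow this in B6 and NZO. Over all genes tested, 19.4% were higher and 14.7% lower in B6, and 26.7% and 19.5% in NZO. In Cast these shares were 30.8% and 28.8%, in WSB 22.6% and 22.4%, and in PWK 22.5% and 22.7%. Of 5 endothelial markers, 0 were higher and 0 lower in B6 (239 to 315 CPM in sum), 2 higher and 2 lower in NZO (201 to 259) and 1 higher and 3 lower in Cast (153 to 251). Of 5 stellate cell markers, 4 were higher and 0 lower in B6 (329 to 432 CPM in sum), 2 higher and 2 lower in NZO (173 to 367) and 1 higher and 4 lower in Cast (156 to 262). The list of resident and other macrophage markers holds 15 genes, of which 13 were higher in B6 and 13 in NZO, 11 were lower in Cast, 7 were lower in WSB and 6 were lower in PWK with 2 higher. Their summed level was 519 to 1284 CPM in B6 (median 895), 462 to 2246 in NZO (median 867), 381 to 739 in PWK (median 582), 465 to 884 in AJ (median 511), 356 to 538 in Cast (median 479), 267 to 537 in WSB (median 421), 329 to 634 in NOD (median 412) and 268 to 580 in strain-129 (median 345). None of the 15 was at 0 in a whole strain. In PWK, where 21 members were higher, 2 of these markers were higher and 6 lower. Their median sum there, 582 CPM, was below B6 and NZO and above the remaining strains. Of 8 T and NK cell markers, 7 were higher in B6, 5 in NZO and 2 in PWK, and 6 were lower in Cast. In NZO 1 was lower, Cd4 (-1.25). Summed levels were 2.49 to 6.47 CPM in B6 and 0.259 to 9.40 in Cast, where Nkg7 had no reads. Most of the Cast sum was Cd4, at a mean of 2.64 CPM (0.129 to 8.99), against 1.08 in B6. Cd4 did not pass in Cast or in B6. Of 6 B cell markers, 5 were higher in B6 and 5 in NZO and 4 were lower in Cast (12.5 to 38.0 CPM in B6, 5.34 to 139.5 in NZO, 0.928 to 7.0 in Cast). The median sum was 9.39 CPM in NZO, below 20.2 in B6, 20.4 in AJ and 36.1 in NOD. Ighm alone reached 134.6 CPM in NZO. Of 6 markers of plasmacytoid dendritic cells, the strongest interferon producers, 4 were higher in B6, 4 in NZO and 5 in PWK, and 5 were lower in Cast (15.9 to 38.4 CPM in B6, 22.7 to 100.3 in NZO, 16.0 to 20.1 in PWK, 10.4 to 15.4 in Cast). Most of the NZO sum was Ly6d, at a mean of 54.5 CPM, and Tcf4, at 14.6, while each of the other 4 was at 0.654 CPM or less. Ly6d was the 1 marker of that list that was lower in PWK (-2.31). Summed neutrophil markers were 1.93 to 1311 CPM in NZO, and all 4 that were tested were higher there. The NZO median was 7.75, near 6.54 in B6 and far below the top of the NZO range. Other markers called higher in NZO were also spread widely there, with Lyz2 at 39.6 to 731 CPM, Marco at 1.60 to 142 and Nkg7 at 0.0459 to 4.93. How far the NZO marker calls depend on a single library was not tested. The part of these cell types in the member levels was not tested.

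Other genes of the pathway, listed apart from the members, were counted in the same fit. Over all genes tested, 19.4% were higher and 14.7% lower in B6, and 26.7% and 19.5% in NZO. In Cast these shares were 30.8% and 28.8%, in WSB 22.6% and 22.4%, and in PWK 22.5% and 22.7%. Of 11 interferon ligand genes only Ifnk was in the table and none was tested, so ligand levels are not analysed here. Of 16 receptors, kinases and transcription factors, 9 were higher in B6 with 0 lower, 9 higher and 2 lower in NZO, and 2 higher and 11 lower in Cast. Irf5, a factor downstream of toll-like receptors, fell in Cast by 2.19 (SE 0.264) and in PWK by 1.29 (SE 0.229), and rose in WSB by 1.51 (SE 0.179), where many members were lower. Irf1 fell in Cast by 1.39.

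Of 19 nucleic acid sensors and adaptors tested, 11 were higher and 2 lower in B6, 13 higher and 0 lower in NZO, 3 higher and 9 lower in Cast, and 1 higher and 7 lower in WSB. Tlr7, the endosomal receptor for single-stranded RNA, rose in B6 by 1.40 (SE 0.198) and in NZO by 1.08 (SE 0.193), and fell in Cast by 1.44 (SE 0.26) and in WSB by 1.78 (SE 0.253). Ifi204, a DNA sensor of the HIN-200 family, rose in B6 by 2.45 (SE 0.165), with 8.78 to 16.9 CPM, above every library of the other strains (at most 7.47). Of 13 inhibitors, 5 were higher in B6 and 5 in NZO with 1 lower in each. In Cast 4 inhibitors were higher and 4 lower, near the shares of all genes there. Of 49 further interferon-induced genes, 33 were higher in B6 with 0 lower, and 34 higher and 3 lower in NZO. In Cast 6 of them were higher and 31 lower, and in WSB 7 higher and 24 lower. In PWK 10 were higher and 12 lower, near the shares of all genes there. Cxcl10, a chemokine for T cells, rose in NZO by 2.45 (SE 0.276) and in B6 by 2.33 (SE 0.291) and fell in Cast by 3.51 (SE 0.505), and Cd274, the checkpoint ligand PD-L1, rose in NZO by 1.98 (SE 0.193) and fell in Cast by 2.64 (SE 0.313).

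The calls were last counted by the response element. Of the 15 members with a match in the printed search, 8 were higher and 2 lower in PWK, and of the 17 with a promoter entry and no match, 9 were higher and 1 lower. In Cast the lower counts were 13 of 15 and 13 of 17, and in B6 the higher counts were 11 of 15 and 14 of 17.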

How the data were processed

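Liver poly(A) RNA of 60 libraries from 8 strains was analysed (the strain labelled 129 is written strain-129). Of the 61 listed samples 1 has no column and 1 column matches no sample, and neither is used. The members and gene lists were chosen with earlier results of these data known. The deposited count table holds estimated counts per gene (20% of values are not whole), and the authors also deposited log2-scale variance-stabilised values. The submitters' processing notes name GRCm38 and DESeq2. Which aligner and counter were used, with or without strand, and whether each strain had a reference of its own, is not given in the sources used here.

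Counts were rounded, filtered by filterByExpr, scaled by TMM and fitted with edgeR 4.0.16 (quasi-likelihood, strain as the only factor, R 4.3.3), with Benjamini-Hochberg adjustment over 16165 genes at 0.05. Log2 CPM used a prior count of 2. The test was tested on simulated data. Members with fold changes are the called ones with the largest change, at most 6 per direction, averaging at least 1 CPM; other pathway genes needed a log2 change of at least 1. Alternatives used RLE scaling, no filter, DESeq2 1.42.0, limma 3.58.1 on the deposited log2 values, Xist as a covariate, a replicate block, and leaving out each library. Same-strain libraries differed by more than counting noise (chi-square per gene at least 16.2). Gene positions are those of the deposited annotation, and exon lengths come from the GENCODE annotation of GRCm38.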

Additional observations from a re-analysis of the deposited data

Results flagged for a closer look

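In each strain the 40 members and their mean score were screened for a library whose gap to its nearest neighbour exceeded Dixon's 95% critical value. Of 328 groups 27 held such a library. The groups of a strain share libraries and the members rise and fall together, so this count cannot be set against a chance rate. Cast library 5 accounted for 16, all on the high side. Its levels, with the next Cast library after each, were 5.36 CPM for Ifit1 (2.29), 4.58 for Ifit2 (2.10), 5.24 for Ifit3 (1.64), 3.47 for Ifit3b (1.03) and 9.49 for Irf7 (3.52). They were 33.0 for Irf9 (16.4), 1.83 for Isg15 (0.535), 5.42 for Usp18 (1.33), 14.8 for Oasl1 (5.05) and 5.57 for Oasl2 (1.76). They were also 10.8 for Rsad2 (2.29), 8.92 for Xaf1 (4.55), 4.97 for Trim30a (3.34), 0.748 for Ifi44 (0.3), 9.25 for Rtp4 (3.90) and 38.9 for Eif2ak2 (19.5).

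The other such values were spread over 8 libraries. PWK library 9 was low for the member score (3.04, next 3.81) and for Lgals3bp (203 CPM, next 358). Cast library 1 was low for Bst2 (18.7 CPM, next 56.3), and NZO library 6 was low for Helz2 (136 CPM, next 151). WSB library 9 was high for Parp9 (39.4 CPM, next 34.5), Parp12 (31.1, next 25.1) and Ddx58 (34.0, next 28.0). Single high values were those of Ifit3b in strain-129 library 4 (4.34 CPM, next 2.32), Oasl1 in WSB library 7 (5.46, next 3.05), Trim25 in B6 library 3 (168, next 134) and Sp100 in WSB library 4 (8.26, next 6.64).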

How the results depend on the processing

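Of 60 named member changes, 50 kept direction and call under all alternatives run, 10 lost the call under at least 1, and 0 reversed. Leaving out 1 library at a time moved the members higher in strain-129 between 0 and 2, lower in strain-129 between 8 and 17, higher in AJ between 0 and 5, higher in Cast between 0 and 1, higher in NOD between 0 and 1, and lower in PWK between 3 and 5; the higher counts stayed between 30 and 34 in B6 and between 32 and 33 in NZO, and the lower count in Cast between 33 and 35. With Xist as a covariate 16 members were lower in NOD. In limma on the deposited log2 values 1 was higher in strain-129, 1 in AJ and 0 in Cast. Dropping the 6 libraries over 9% 18S RNA, an alternative chosen after seeing the data, left 0 higher in NOD. The cause was not tested. Replicate numbers are shared across strains. Of 181 same-numbered pairs 131 had deviations correlated over 0.1 (median 0.201, against -0.07 for other numbers), so not every pair did. The labels give the numbers no meaning and no pairing was assumed. In strain-129, AJ, NOD, NZO and B6 libraries 1 to 4 are those of high Xist, and in Cast libraries 1 to 3 are. In WSB they are libraries 1, 3, 4 and 9, and in PWK libraries 1, 2, 6 and 7. With a replicate block 34 members were higher in B6, 32 higher in NZO, 33 lower in Cast and 13 lower in NOD, and no count moved past 1.5 times. Depth limits the lowest members, with as few as 2 reads in a library.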

Other observations

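Several interferon-induced genes outside the 40 had a strain pattern of their own. Apobec3, a cytidine deaminase that restricts retroviruses, had 16.8 to 30.0 CPM in the 7 Cast libraries, above every other library (at most 13.4, in NZO), and rose there by 2.77 on the log2 scale (SE 0.153, adjusted p = 7.5e-23 in edgeR), while most members were lower in Cast. Trim12c, a mouse TRIM gene, averaged 0.0581 CPM in PWK, with 0 to 0.204 per library, and 2.83 CPM or more in each of the other 7 strains. Ifi27l2b averaged 8.85 CPM in B6, 7.60 in PWK, 4.22 in AJ and 2.99 in strain-129, and 0.42 or less in WSB, NOD, NZO and Cast, so that B6 was the highest strain for this gene and NZO was among the low ones.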
